A study of Mus musculus with 6 samples.

Results

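The genes described here encode the proteins of the mitochondrial ribosome. They were taken as every row of the deposited TPM table whose symbol begins with Mrpl or Mrps followed by a number, which gave 78 genes of 25124 rows, 49 named Mrpl and 29 named Mrps. TPM is a transcript level per transcript length, scaled to the total of the library. The libraries are poly(A)-selected RNA-seq of sorted macrophages of the colon's lamina propria, the connective layer under the gut epithelium. Both groups were 8-week-old C57BL/6 mice. All were given 2.0% dextran sulfate sodium (DSS), a detergent-like polymer that injures the colon epithelium, in drinking water for 7 days and plain water for 7 more, and were sampled on day 14, so no library comes from an uninjured colon. The 3 wild type libraries carry no transgene. The 3 transgenic libraries overexpress E4BP4, the product of Nfil3, a basic leucine zipper factor that binds D-box DNA, in macrophages. The promoter that drives the transgene is not given in the sources used here. The genotype field writes the last digit of E4BP4 differently in transgenic replicates 2 and 3, and the titles, which name E4BP4 in all 3, were followed. The labels do not say whether each library is 1 mouse, so p-values cover library-to-library spread, which may be technical.

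Mitochondrial ribosomes sit in the mitochondrial matrix and translate the few proteins still encoded by mitochondrial DNA, all of them core subunits of the respiratory chain or of ATP synthase. Their RNAs come from mitochondrial DNA, but every protein is encoded in the nucleus, made in the cytosol and imported. The small subunit reads the message and the large subunit joins amino acids. Some proteins have a counterpart in the bacterial ribosome and others were added during mitochondrial evolution. In macrophages this machinery supplies oxidative phosphorylation, whose use is known to differ between inflammatory and reparative states.

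The targeted gene was higher in the transgenic libraries. Nfil3 was at 117, 120 and 119 TPM across wild type and at 133, 134 and 141 TPM across transgenic libraries, a log2 fold change of 0.19 ± 0.029 (SE; limma adjusted p = 0.00261). Reads in genes, recovered from the TPM steps, numbered 13.97 to 15.06 M (1e6) per library, and each member held between 51 and 805 of them, with a median of 270.5. The 8 macrophage markers summed to 4458 to 4502 TPM across wild type and 4228 to 4288 TPM across transgenic libraries. Of these 8, 3 were higher and 5 lower by the limma test described below, with Csf1r at 983 against 1094 TPM and Cd14 at 1785 against 1457 TPM. Markers of other cells were present and moved with genotype. The 10 neutrophil markers summed to 919 to 933 against 369 to 426 TPM, with Mpo, Elane and Camp under 1 TPM. The 8 epithelial markers summed to 874 to 879 against 435 to 448 TPM, and 6 were lower and 0 higher. That sum follows Car1, at 497 against 164 TPM, while Epcam stood at 42.1 against 36.6 and Krt18 at 16.8 against 19.5 TPM. The 7 fibroblast markers summed to 151 to 153 against 106 to 110 TPM. The 6 endothelial markers, with Tek under 1 TPM, summed to 49.0 to 52.3 against 32.0 to 35.6 TPM. The 6 B and plasma cell markers stood at 226 to 239 against 265 to 283 TPM, the 8 T and NK cell markers at 112 to 118 against 123 to 131 TPM, and the 6 dendritic cell markers at 29.5 to 34.1 against 33.5 to 34.5 TPM. The 8 genes of cycling cells summed to 211 to 216 against 188 to 201 TPM. The part of these shifts in any result below was not tested, and in bulk libraries fewer cells of a type and less RNA per cell cannot be told apart.

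Promoters of 69 of the 78 genes could be taken from RefSeq (GRCm38.p6, the build also called mm10), as windows of 300 bases that end shortly after the transcription start. They are shown here because many mitochondrial ribosomal protein promoters lack a TATA box and are known to be driven by ETS-family factors such as GABP, by NRF1 and by YY1, and because the overexpressed protein is itself a DNA-binding factor. Mrpl52 lies at chr14:54426659-54426958 on the plus strand, Mrpl20 at chr4:155802628-155802927 on the plus strand, Mrps15 at chr4:126046678-126046977 on the plus strand and Mrps36 at chr13:100744610-100744909 on the minus strand. These 4 windows belong to genes that were lower in transgenic libraries. Mrps18a, at chr17:46110754-46111053 on the plus strand, and Mrpl9, at chr3:94443086-94443385 on the plus strand, are shown for their motifs. Each runs 5′ to 3′ on the strand of the gene, and capitals mark the motifs searched.
Mrpl52: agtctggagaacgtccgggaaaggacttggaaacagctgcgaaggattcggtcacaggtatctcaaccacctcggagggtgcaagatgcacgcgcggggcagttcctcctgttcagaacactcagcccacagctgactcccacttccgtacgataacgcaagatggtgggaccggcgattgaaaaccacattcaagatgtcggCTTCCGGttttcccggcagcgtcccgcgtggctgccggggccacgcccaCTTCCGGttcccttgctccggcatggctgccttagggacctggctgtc
Mrpl20: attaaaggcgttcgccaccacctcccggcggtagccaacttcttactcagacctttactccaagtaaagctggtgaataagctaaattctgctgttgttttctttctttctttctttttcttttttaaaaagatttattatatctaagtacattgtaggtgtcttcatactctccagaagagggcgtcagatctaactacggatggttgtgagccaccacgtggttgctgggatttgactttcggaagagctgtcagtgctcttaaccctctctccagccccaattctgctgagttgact
Mrps15: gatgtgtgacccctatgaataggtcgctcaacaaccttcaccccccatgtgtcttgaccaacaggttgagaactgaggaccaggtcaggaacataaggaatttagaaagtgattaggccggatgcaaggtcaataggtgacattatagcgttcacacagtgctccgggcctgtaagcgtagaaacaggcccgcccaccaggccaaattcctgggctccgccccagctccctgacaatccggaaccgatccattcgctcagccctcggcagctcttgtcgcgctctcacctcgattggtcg
Mrps36: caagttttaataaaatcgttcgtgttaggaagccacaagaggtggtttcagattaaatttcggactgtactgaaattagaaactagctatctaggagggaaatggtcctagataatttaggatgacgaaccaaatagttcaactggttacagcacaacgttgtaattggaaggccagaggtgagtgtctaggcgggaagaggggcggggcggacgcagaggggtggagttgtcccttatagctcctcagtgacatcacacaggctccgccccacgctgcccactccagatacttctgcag
Mrps18a: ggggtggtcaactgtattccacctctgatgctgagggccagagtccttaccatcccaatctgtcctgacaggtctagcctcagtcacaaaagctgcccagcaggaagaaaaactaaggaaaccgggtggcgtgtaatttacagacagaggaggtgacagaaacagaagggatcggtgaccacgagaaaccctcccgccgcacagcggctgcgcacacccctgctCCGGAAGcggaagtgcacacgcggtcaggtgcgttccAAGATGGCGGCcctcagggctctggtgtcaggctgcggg
Mrpl9: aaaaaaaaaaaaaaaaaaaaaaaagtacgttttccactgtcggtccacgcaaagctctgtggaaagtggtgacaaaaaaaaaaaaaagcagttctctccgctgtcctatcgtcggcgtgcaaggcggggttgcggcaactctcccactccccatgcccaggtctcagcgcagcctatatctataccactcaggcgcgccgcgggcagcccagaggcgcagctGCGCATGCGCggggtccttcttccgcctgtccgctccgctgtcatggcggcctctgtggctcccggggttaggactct

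Exact matches were searched on both strands. The ETS core CCGGAAG, or its complement CTTCCGG, was in 26 of the 75 member promoters, 34.7%, and in 8.86% of all 32851 promoters of the table. It is seen in capitals in Mrpl52, where 1 copy lies before and 1 after the start, and in Mrps18a. The YY1 motif, AAGATGG followed directly by CGGC, was in 5 member promoters, those of Mrpl35, Mrpl37, Mrps11, Mrps18a and Mrps27, 6.67% against 0.633% of all. The NRF1 palindrome, GCGCA followed by its complement TGCGC, was in 3, those of Mrpl32, Mrpl39 and Mrpl9, 4% against 0.971% of all. The D-box forms TTACGTAA and TTATGTAA, the letters E4BP4 is known to bind, were in 0 of the 75, against 0.119% and 0.938% of all promoters. At shares this low, 75 promoters are too few to set the members apart from the rest. The windows of Mrpl20, Mrps15 and Mrps36 held none of the 5. Member promoters had a median GC content of 58.7%, against 52.7% over all promoters. These matches describe letters in short windows and show no binding.

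All 78 genes passed the filter on low values, a group mean of 1 TPM or more in either genotype. Mean levels over the 6 libraries spanned 31.8-fold, from 3.65 TPM for Mrpl35 to 116 TPM for Mrpl52, with a median of 21.0 TPM among Mrpl and 15.6 TPM among Mrps genes. Mrpl52, a mitochondria-specific protein of the large subunit, stood alone at the top. The next large subunit genes were Mrpl24 at 64.96, Mrpl33 at 63.3, Mrpl42 at 47.5 and Mrpl30 at 41.3 TPM. Mrpl24 and Mrpl33 did not differ beyond their spread, since Mrpl33 ranged from 57.2 to 71.0 TPM over the libraries and Mrpl24 from 62.1 to 68.8 TPM. Among small subunit genes Mrps21 led at 62.1 TPM, followed by Mrps15 at 35.2, Mrps18c at 34.5, Mrps24 at 26.9 and Mrps34 at 25.9 TPM. Mrps31 was lowest at 6.28 TPM. The proteins stand in equal numbers in an assembled ribosome, apart from the L7/L12 stalk protein encoded by Mrpl12, which is present in several copies and stood at 38.6 TPM. TPM here is per length of 1 transcript per gene, and log2 level and log2 length had Pearson's r = -0.67 over the 78 genes, which share libraries and length scaling, and the part of the transcript chosen in this order was not tested.

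**Figure D1:**
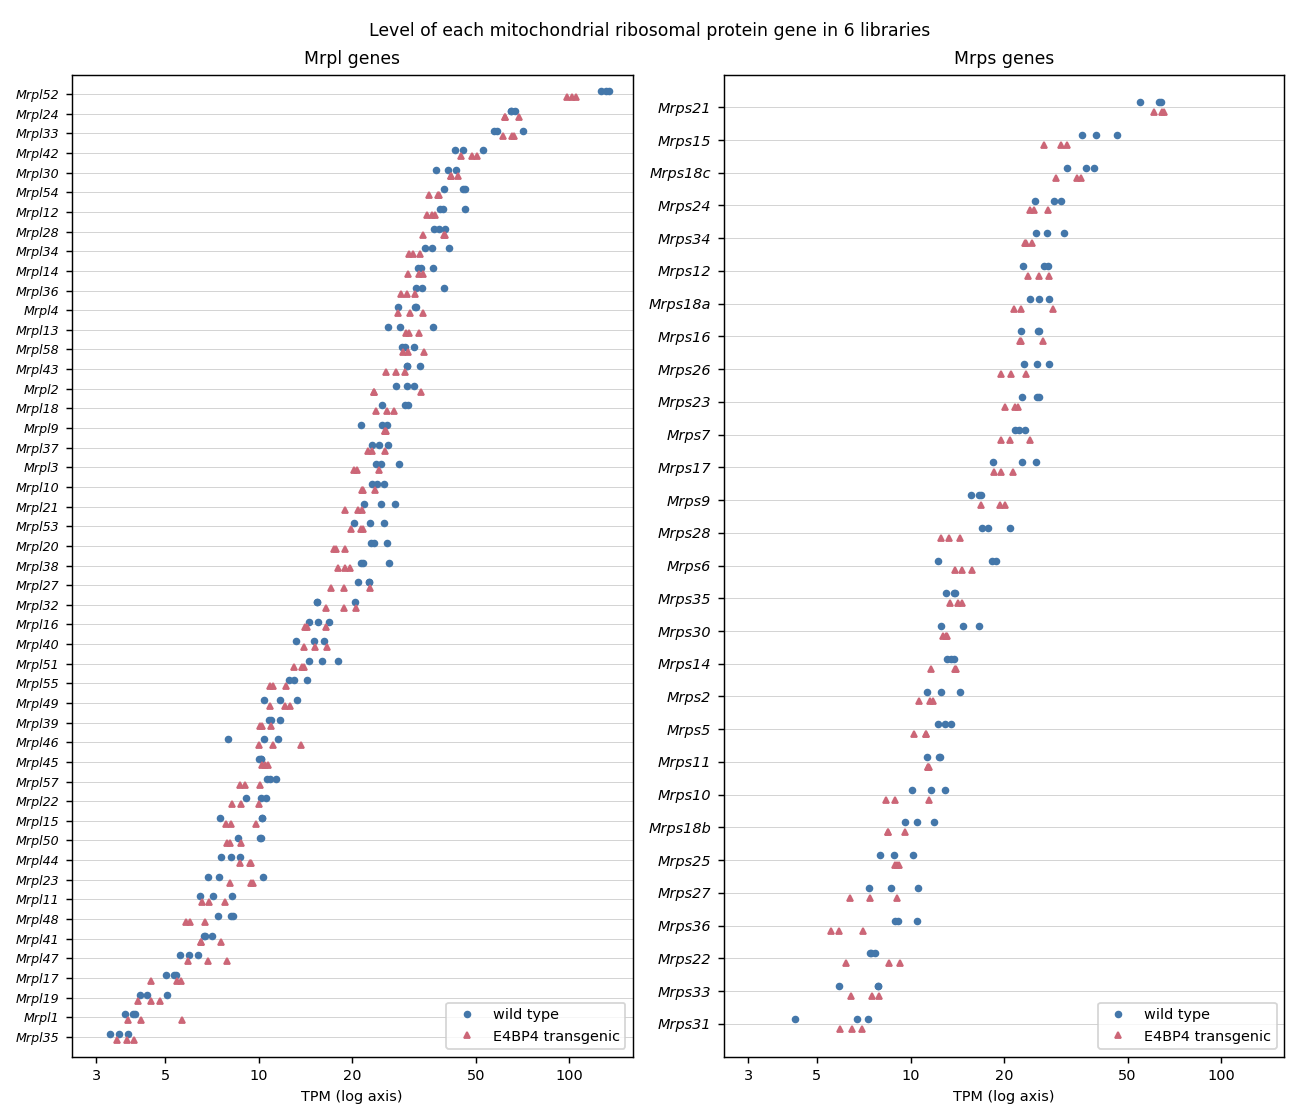
TPM (log axis) of each of the 49 Mrpl genes (left) and 29 Mrps genes (right) in 3 wild type libraries (circles) and 3 E4BP4 transgenic libraries (triangles), ordered by mean level. Mrpl52 stands highest, with all transgenic libraries below all wild type ones, while for 57 of the 78 genes the groups overlap.

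Between genotypes, 9 of the 78 genes were lower in transgenic libraries and 0 were higher, by limma on log2(TPM + 1) with Benjamini-Hochberg adjustment over 12633 tested genes and a threshold of 0.05. The 9 are 11.5% of the members. Over all tested genes 13.2% were lower and 8.71% were higher, so the share of lower calls among the members lay near the background. At an unadjusted p below 0.05, 23 members (29.5%) were lower and 1 (1.28%), Mrps9, was higher, against 20.5% and 14.7% of all tested genes. On the recovered reads, limma called 8 members lower (10.3%) and 0 higher. Over all tested genes that fit gave 2076 lower (16.4%) and 1641 higher. With upper-quartile scaling of the libraries, 1315 genes were lower and 1425 higher in place of 1666 and 1100, and the members gave 6 lower and 0 higher. The members' fold changes were small. Their median log2 fold change was -0.10, against -0.01 over all tested genes, and ran from -0.56 to 0.21. It was -0.06 with upper-quartile scaling, where all tested genes had a median of 0.02, and -0.08 with median-of-ratios scaling, where they had 0.00. Of the 78, 52 had a log2 fold change below 0, 66.7% against 52.6% of all tested genes. All 3 transgenic libraries lay below all 3 wild type libraries in 19 members, where 22.3% of all tested genes did so, and above them in 2, Mrpl44 and Mrpl45, where 17.1% did so.

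**Figure D2:**
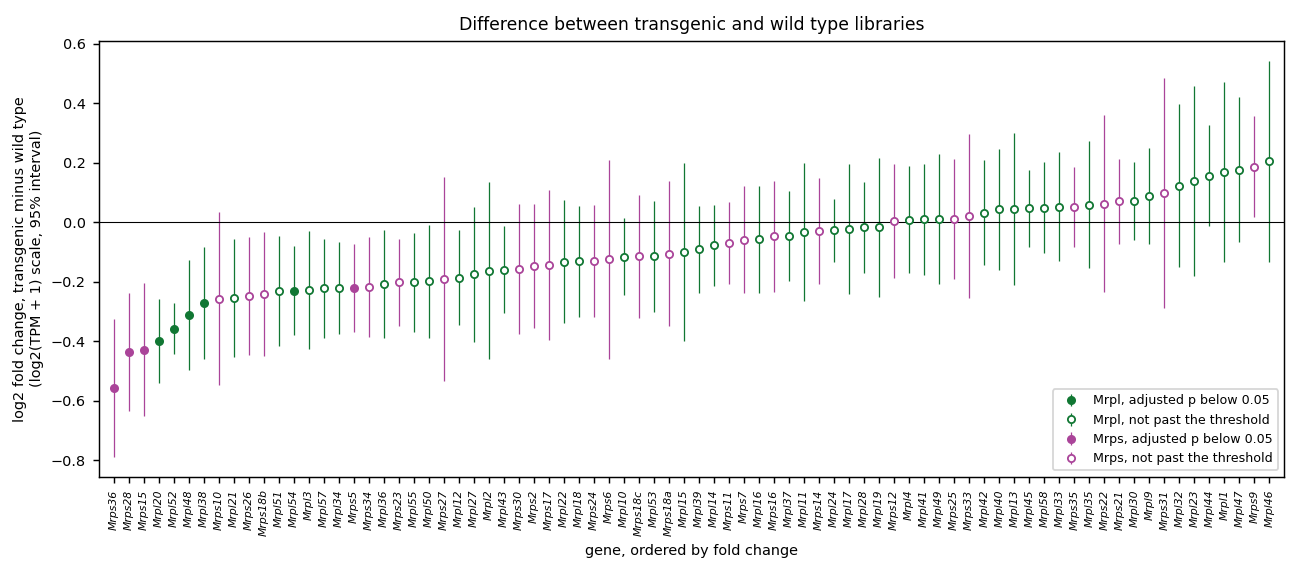
Log2 fold change, transgenic minus wild type on the log2(TPM + 1) scale, of the 78 genes in order, with limma 95% intervals. Filled points are the 9 genes with adjusted p below 0.05, all on the negative side, and the 2 colours separate Mrpl from Mrps genes.

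Of the 9, 5 encode large and 3 small subunit proteins, and Mrps36 belongs to neither. Mrps36 had the largest fold change of the 78. Wild type libraries held 10.5, 9.10 and 8.94 TPM and transgenic libraries 7.03, 5.89 and 5.56 TPM. Every transgenic library lay below every wild type one, and the mean was 1.55-fold lower (log2 fold change -0.56 ± 0.10 SE, limma adjusted p = 0.00612). Despite its symbol, the Mrps36 product is now known as KGD4, a subunit that tethers the dehydrogenase of the alpha-ketoglutarate dehydrogenase complex, an enzyme of the citric acid cycle, and it is not seen in structures of the mitochondrial ribosome. Its depth was the thinnest of the 9, at 51 to 91 reads per library, and the annotation holds processed pseudogenes nearly identical to it.

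Mrpl52 carried the most RNA. Wild type libraries held 126, 131 and 135 TPM and transgenic libraries 102, 98.0 and 105 TPM, with means of 131 ± 4.36 and 102 ± 3.68 TPM (SD, 3 libraries each). The groups were far apart for their spread, with 488 to 685 reads per library and a log2 fold change of -0.36 ± 0.037 (SE; limma adjusted p = 0.000401). Mrpl20, whose bacterial counterpart is an early assembly protein of the large subunit, had 23.0, 23.5 and 25.8 TPM across wild type and 19.0, 17.7 and 17.4 TPM across transgenic libraries. It was 1.34-fold lower, a log2 fold change of -0.40 ± 0.060 (SE; limma adjusted p = 0.00277), with no overlap.

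Mrps28 and Mrps15 encode proteins of the small subunit, Mrps15 being the counterpart of bacterial S15, which binds the small ribosomal RNA early in assembly. Mrps28 was at 20.9, 17.8 and 17.0 TPM across wild type and at 12.5, 14.4 and 13.3 TPM across transgenic libraries, a log2 fold change of -0.44 ± 0.086 (SE; limma adjusted p = 0.00935). Mrps15 was at 46.2, 39.7 and 35.7 TPM across wild type and at 31.9, 27.0 and 30.4 TPM across transgenic libraries, a log2 fold change of -0.43 ± 0.096 (SE; limma adjusted p = 0.0165). In both genes wild type replicate 1 was the highest library, and the groups did not overlap. Without transgenic replicate 2 the adjusted p of Mrps15 was 0.0580.

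The remaining 4 genes lay closer to the threshold. Mrpl48, a mitochondria-specific protein of the large subunit, was at 7.40, 8.11 and 8.25 TPM across wild type and at 5.84, 6.01 and 6.72 TPM across transgenic libraries (log2 fold change -0.31, limma adjusted p = 0.0279). Its exons share 403 bases with Rab6a on the opposite strand, and the kit is not described as keeping strand, so reads of that stretch cannot be assigned. Mrpl38 stood at 21.6, 26.2 and 21.4 TPM against 19.6, 18.0 and 19.0 TPM (log2 fold change -0.27, adjusted p = 0.0490). Mrpl54 stood at 39.5, 46.3 and 45.3 TPM against 37.8, 38.2 and 35.3 TPM (log2 fold change -0.23, adjusted p = 0.0394). Both encode mitochondria-specific proteins of the large subunit, and in both the lowest wild type library stood just above the highest transgenic one. Mrps5, the counterpart of bacterial S5, which helps keep decoding accurate, stood at 13.5, 12.9 and 12.2 TPM against 11.2, 11.2 and 10.3 TPM (log2 fold change -0.22, adjusted p = 0.0448). Over 14 alternative settings, Mrpl52, Mrpl20, Mrps28 and Mrps36 passed in all, Mrps15 missed in 1, Mrpl48 in 5, Mrpl38 in 10, Mrpl54 in 11 and Mrps5 in 12.

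**Figure D3:**
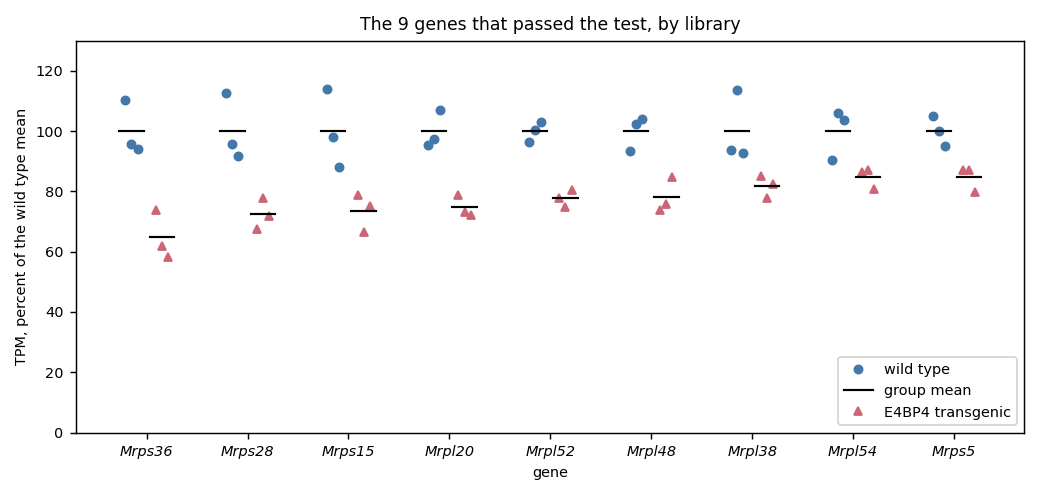
TPM of the 9 genes with adjusted p below 0.05 in each library, as a percent of the gene's wild type mean (circles wild type, triangles transgenic, bars group means, 3 libraries each). In every gene the 3 transgenic libraries lie below the 3 wild type ones, with the widest gap in Mrps36 and the narrowest in Mrpl54.

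The other 69 genes did not pass. On the log2(TPM + 1) scale their 95% intervals all lay within 1.5-fold either way, and for 47 of them within 1.3-fold. Changes smaller than these bounds could have been missed at this depth and number of libraries. The standard error of the log2 fold change had a median of 0.081. The median coefficient of variation among libraries was 9.09% in wild type and 7.11% in transgenic, where read counting alone gives 6.01%. Of the 69, 10 had every transgenic library below every wild type one: Mrpl12, Mrpl21, Mrpl34, Mrpl36, Mrpl43, Mrpl51, Mrpl55, Mrpl57, Mrps23 and Mrps34. With the 9 called genes they make up the 19 of 78 members given above, where 22.3% of all tested genes did so. Mrpl34 averaged 37.1 against 31.6 TPM, with adjusted p = 0.0518. Mrpl12, the stalk protein, stood at 39.2, 46.1 and 38.5 TPM against 36.2, 37.1 and 34.8 TPM, with a log2 fold change of -0.19 and adjusted p = 0.0967. At the other end, Mrpl46 had the highest log2 fold change, 0.21 (adjusted p = 0.365), from 10.4, 7.95 and 11.5 TPM to 13.7, 10.02 and 11.1 TPM. Mrps9 stood at 16.9, 15.6 and 16.7 TPM against 19.4, 20.2 and 16.9 TPM, with a log2 fold change of 0.19 and adjusted p = 0.112, where transgenic replicate 3 lay within the wild type range.

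Several of the most abundant members had fold changes near 0. Mrpl24 was at 65.1, 66.9 and 64.7 TPM across wild type and at 62.2, 68.8 and 62.1 TPM across transgenic libraries, with a 95% interval of its log2 fold change from -0.13 to 0.08. Mrps21 stood at 54.8, 63.0 and 64.0 TPM against 60.9, 64.3 and 65.5 TPM, with an interval from -0.07 to 0.21. Mrpl33 and Mrpl42 had log2 fold changes of 0.05 and 0.03 and Mrpl30 of 0.07. These intervals leave out falls as large as that of Mrpl52, whose interval ran from -0.44 to -0.27. The least stable values were those of Mrps31 in wild type, with 7.30, 4.25 and 6.73 TPM and a coefficient of variation of 26.6%, and of Mrpl1 in transgenic libraries, at 21.8%.

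Large and small subunit genes were then set side by side. By symbol, 5 of 49 Mrpl genes (10.2%) and 4 of 29 Mrps genes (13.8%) were lower in transgenic libraries and 0 of either were higher. The median log2 fold change was -0.06 among Mrpl and -0.12 among Mrps genes. Fold changes were below 0 in 31 of 49 and 21 of 29. The order of these medians was not stable, because without wild type replicate 1 it was -0.10 among Mrpl and -0.07 among Mrps genes. Symbols do not follow structure everywhere. The Mrps18a and Mrps30 products sit in the large subunit, where they are called mL66 and mL65, and Mrps36 belongs to neither. Assigned by structure, 5 of 51 large and 3 of 26 small subunit genes were lower, with medians of -0.08 and -0.12. Mrps18a, Mrps18b and Mrps18c are relatives of bacterial S18 that take different places. Mrps18c averaged 35.9 ± 3.57 TPM across wild type and 33.1 ± 3.21 TPM across transgenic libraries (SD, 3 libraries each). Mrps18a stood at 26.1 ± 1.85 against 24.4 ± 3.92 TPM and Mrps18b at 10.6 ± 1.16 against 8.83 ± 0.657 TPM, and none of the 3 passed the limma threshold (adjusted p = 0.409, 0.522 and 0.0963). Mrps30 stood at 14.6 ± 2.08 against 12.9 ± 0.181 TPM (adjusted p = 0.282). Exons of Mrps18b share 59.1% of their bases with Gm16279 on the opposite strand.

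Summed over genes, the levels were lower in all transgenic libraries. The 78 genes summed to 1743, 1753 and 1778 TPM across wild type and 1631, 1613 and 1631 TPM across transgenic libraries. The means were 1758 ± 18.2 and 1625 ± 10.4 TPM (SD, n = 3 each), and the sum fell by 7.57%. The groups did not overlap, and the gap was several times the spread of either. Mrpl genes summed to 1170, 1197 and 1208 TPM against 1114, 1093 and 1113 TPM, and the sum fell by 7.16%. Mrps genes summed to 573, 556 and 570 TPM against 517, 520 and 517 TPM, and the sum fell by 8.45%. The ratio of the Mrpl to the Mrps sum was 2.04, 2.15 and 2.12 across wild type and 2.15, 2.10 and 2.15 across transgenic libraries. This ratio, which follows symbols and not structure, overlapped between genotypes. A sum follows its most abundant genes. Of the fall of 133 TPM, 28.9 TPM (21.7%) came from Mrpl52 and 68.8 TPM (51.7%) from the 9 genes that passed. With upper-quartile scaling the sum over the 78 genes fell by 5.12%, that of Mrpl genes by 4.70% and that of Mrps genes by 6.02%, each without overlap. As a share of all TPM, the members made up 0.323% across wild type and 0.299% across transgenic libraries.

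**Figure D4:**
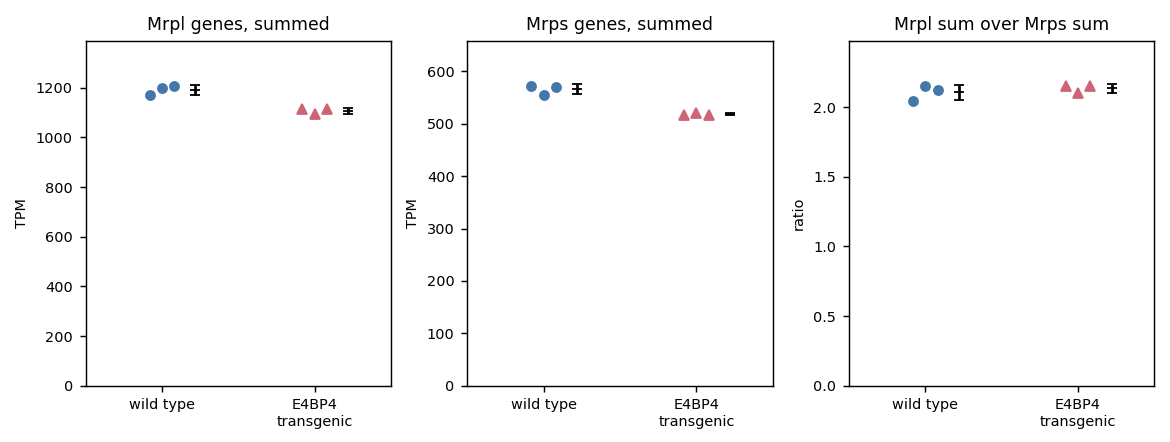
Summed TPM of the 49 Mrpl genes (left) and of the 29 Mrps genes (middle), and the ratio of the sums (right), per library, with mean and SD beside the points. Both sums are lower in all 3 transgenic libraries, and the ratios of the groups overlap, at 2.04 to 2.15 in wild type and 2.10 to 2.15 in transgenic libraries.

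Other features of the genes were compared with their fold changes as descriptions. Among genes with a bacterial counterpart 3 of 44 were lower, with a median of -0.06, and among mitochondria-specific genes 4 of 31 were lower, with a median of -0.11. Within the large subunit this was 1 of 29 against 4 of 21, and within the small subunit 2 of 15 against 0 of 10, so the order turned between subunits. Mrps28 and Mrps36, both called lower, and Mrpl55, not called, were in neither class. Mrps18a and Mrps18b, relatives of bacterial S18, were counted as mitochondria-specific. By level, the lowest, middle and highest tertiles held 2, 4 and 3 lower genes, with medians of -0.02, -0.15 and -0.09. Over the 78 genes, log2 fold change had Pearson's r = -0.19 with log2 level and 0.11 with log2 length. The 8945 tested genes within the members' range of levels gave 13.3% lower, 8.76% higher and a median of -0.01. Exons overlap those of another gene in 26 members, 22 of them on the opposite strand, and 17 have a nearly identical pseudogene copy. The 41 members with neither held 6 of the 9 lower genes, and their median was -0.08.

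The authors' deposited table gives their own comparison for 77 of the 78 genes, with reads counted over the whole gene span. By its adjusted p, 17 members were lower and 0 higher in transgenic libraries. Of the 20884 genes with a log2 fold change there, 13.2% were lower and 11.2% higher. Only 12097 of those genes passed the filter used here, as all members did, so the 2 sets are unlike in level. Of these 17, 6 also passed here, Mrpl20, Mrpl38, Mrpl48, Mrpl52, Mrpl54 and Mrps15. The 11 that passed only in the authors' deposited table were Mrpl12, Mrpl21, Mrpl36, Mrpl43, Mrpl51, Mrpl57, Mrps10, Mrps18b, Mrps23, Mrps26 and Mrps34. Mrps28, Mrps36 and Mrps5 passed here and had adjusted p of 0.050, 0.069 and 0.076 in the authors' deposited table. For Mrpl52 the authors' deposited table gives a log2 fold change of -0.37, for Mrpl20 -0.44 and for Mrps15 -0.38. The median over members in the authors' deposited table was -0.11, with -0.10 for Mrpl and -0.16 for Mrps genes. Over the 12097 genes tested here that the authors' deposited table holds, it was -0.03.

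Genes around the mitochondrial ribosome were taken from 6 further lists, of which 89 genes were tested. Of these, 1 was higher (1.12%) and 5 were lower (5.62%), against 8.71% and 13.2% of all tested genes. Their median was -0.03, which was 0.01 with upper-quartile scaling. Of the 5 ribosomal proteins with other symbols 0 passed, and Gadd45gip1, a large subunit protein, stood at 22.9 against 21.3 TPM. Of 13 translation factors 1 fell, Mtrf1, a release factor, from 3.13 ± 0.0944 to 1.92 ± 0.380 TPM (SD; adjusted p = 0.0213 by limma). Of 24 assembly and rRNA modification factors 3 fell and 1 rose. Malsu1, which keeps the large subunit from joining too early, went from 12.3 to 8.39 TPM (limma adjusted p = 0.0166). Nsun4, an rRNA methyltransferase of subunit joining, went from 8.80 to 6.99 TPM (adjusted p = 0.0296), and Afg3l2, a subunit of the protease that matures Mrpl32, from 27.7 to 24.7 TPM (adjusted p = 0.0446), a call that was lost with upper-quartile and with median-of-ratios scaling. Rpusd4, a pseudouridine synthase of the large ribosomal RNA, rose from 9.89 to 13.3 TPM (adjusted p = 0.0232). No call was made among 21 mitochondrial aminoacyl-tRNA synthetases, led by Lars2 at 41.2 against 37.7 TPM. The same held for 17 genes of mitochondrial DNA expression, where Trmt10c, a subunit of mitochondrial RNase P, had adjusted p = 0.0526. Of 9 regulators of mitochondrial biogenesis 1 fell, Yy1, from 28.4 to 24.7 TPM (adjusted p = 0.0235). At unadjusted p below 0.05 the synthetases gave 1 lower and 0 higher and the DNA expression genes 2 lower and 0 higher.

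The products of mitochondrial translation join nuclear-encoded subunits in the respiratory chain. Of 81 tested nuclear genes of the chain and of ATP synthase, 19 were lower (23.5%) and 2 higher (2.47%), with a median of -0.10. With upper-quartile scaling this was 12 lower and 2 higher, with a median of -0.06. Cox6a1, a subunit of cytochrome c oxidase, fell from 328 to 254 TPM (limma adjusted p = 0.00026), Cox8a, another, from 317 to 257 TPM (adjusted p = 0.000358) and Atp5b, the catalytic beta subunit of ATP synthase, from 363 to 319 TPM (adjusted p = 0.00123). These genes stood far above the members, at a median of 80.4 TPM against 17.7 TPM, and the part of this difference of level in the counts of calls was not tested. Of 82 tested cytosolic ribosomal protein genes, 14 were lower (17.1%) and 18 higher (22.0%), with a median of 0.02 and a median level of 410 TPM, and with upper-quartile scaling 5 were lower and 27 higher. Rps2 fell from 517 to 438 TPM (adjusted p = 0.000168), while Rpl39 rose from 171 to 214 TPM (adjusted p = 0.000696) and Rpl3 from 361 to 394 TPM (adjusted p = 0.00121). The members thus had calls in 1 direction and the cytosolic family in both, and a difference between the families was not tested.

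**Figure D5:**
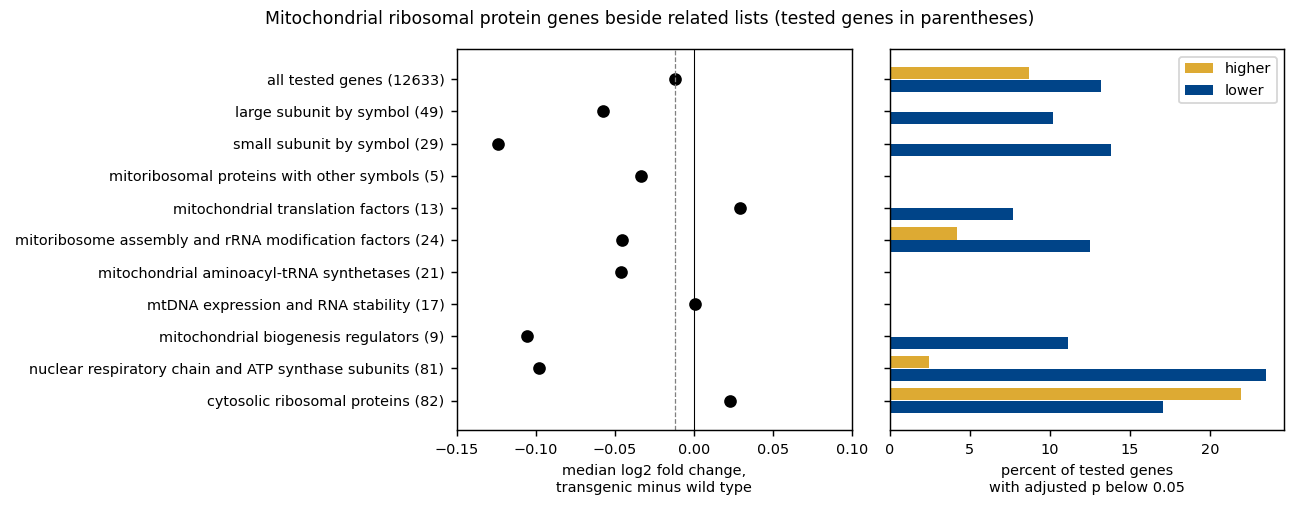
Median log2 fold change (left) and percent of tested genes with adjusted p below 0.05 (right, higher and lower in transgenic libraries) for Mrpl and Mrps genes, the related lists and all 12633 tested genes, with the number tested in parentheses. Mrpl and Mrps genes hold lower calls only, near the 13.2% of all genes, while cytosolic ribosomal protein genes hold calls both ways.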

How the data were processed

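Per the labels' protocols, sorted macrophages gave 20 ng of total RNA per library, from which poly(A) RNA was taken. The submitters' processing notes name bcl2fastq, STAR, HOMER 4.11.1, DESeq2 and mm10. The authors deposited TPM for 25124 gene rows, 1 RefSeq transcript each, with exon length. A second table that the authors deposited holds log2 levels of each library and, for their own comparison, log2 fold changes with raw and adjusted p-values. Its column is headed wild type against transgenic, but its sign is transgenic over wild type, checked against the TPM.

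Genotypes were compared on log2(TPM + 1), which understates changes of low genes, by limma 3.58.1 with a mean-variance trend in R 4.3.3. All 6 libraries entered, a gene needed a group mean of 1 TPM or more, and calls were made at adjusted p below 0.05. The code was also run on simulated reads. Their spread beyond counting was set lower than in these libraries, so that run does not show how the method performs on them. TPM times exon length gave whole reads within 0.1 reads for 99.9% of values up to 1000 reads. Deposited columns sum to between 543612 and 545319 TPM. A count of 0 allows up to 3 reads, 0.113 to 0.122 TPM at 2000 bases, for counting error only. Overlapping exons and pseudogene copies (at least 100 bases at 95% identity) came from GENCODE. Alternatives covered the pseudocount (0.1), the filter, scaling, the trend, the replicate block, each library left out and the recovered reads. The recovered reads and upper-quartile scaling of the sums were chosen after seeing the data.

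Members and gene lists were chosen with earlier results of these data known. Named genes are the called members, the 5 highest and the lowest of each subunit, Mrps18a, Mrps18b, Mrps18c, Mrps30, Mrps36, Mrpl12, up to 3 called genes of each related list or else its lowest p, and Nfil3. Others named beside counts or spreads were chosen after their values were seen.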

Additional observations from a re-analysis of the deposited data

How the results depend on the processing

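Without the filter, 5 members were lower in place of 9, 6.41% against 7.44% of the genes then tested. At a mean of at least 5 TPM, 11 of 75 were lower, 14.7% against 17.5%. With upper-quartile scaling, with median-of-ratios scaling and without limma's trend, 6 were lower, 7.69% of the members each time. Of all tested genes 10.4%, 11.5% and 10.1% were lower under these settings, in that order. Leaving out each library in turn, 4 to 10 members were lower, with 4 without transgenic replicate 2, and 0 to 1 higher, the 1 without transgenic replicate 3. Over all genes these fits gave 704 to 883 higher, with 704 without transgenic replicate 2 and 721 without transgenic replicate 3, and 1231 to 1373 lower. The median log2 fold change over members ranged from -0.112 to -0.058, that of Mrpl genes from -0.096 to -0.048 and that of Mrps genes from -0.142 to -0.068. With upper-quartile scaling the medians were -0.061 over members and -0.088 over Mrps genes, and the summed level, transgenic over wild type, was 0.949 over members, 0.953 over Mrpl and 0.940 over Mrps genes. With median-of-ratios scaling the summed level was 0.936 in place of 0.924 over members and 0.927 in place of 0.916 over Mrps genes. The 6 related lists gave 0 higher and 3 lower without the filter and 2 higher without limma's trend. With libraries left out they gave 0 to 1 higher and 1 to 3 lower. On recovered reads 8 of their 89 tested genes were lower, where 16.4% of all tested genes were lower. Other directions changed for genes that never passed: Mrpl24 was at 0.0099 with upper-quartile scaling. With libraries left out, Mrps31 ranged from -0.104 (without wild type replicate 2) to 0.226, Mrpl33 from -0.0051 (without wild type replicate 3) to 0.149 and Mrpl42 from -0.027 (without wild type replicate 3) to 0.114, with -0.0035 without transgenic replicate 2. The cause of these changes was not tested. Same-numbered libraries' deviations correlated at -0.01, -0.04 and 0.03. These values show no shared shift by replicate number, and they cannot show whether the libraries were paired. With the replicate block, 9 members were lower and 0 higher, of which 6 were shared with the fit without it: Mrpl38, Mrpl54 and Mrps5 were lost and Mrpl3, Mrpl34 and Mrps23 gained. The related lists then gave 3 lower, without Afg3l2 and Nsun4, and all genes gave 922 higher and 1457 lower.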
